A study of Rattus norvegicus with 12 samples.

Results

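The aldo-keto reductases are a family of cytosolic enzymes, and 9 of its genes were followed through the kidneys of 4 rat strains: Akr1c1, Akr1c13, AKR1C3l1, Akr1b7, Akr1b8, Akr1b1, Akr1a1, Akr7a2 and Akr7a3. They were listed by symbol, and every probe set that carried one of these symbols alone was taken. This gave 10 probe sets of 31099 on the array, or 9 genes of the 14167 that a probe set represents. Gene expression had been measured on Affymetrix rat expression arrays in kidneys taken at 30 days of age from rats on 5LOD diet. PCK rats descend from Sprague Dawley stock and have a mutated Pkhd1, the gene behind recessive polycystic kidney disease. SD is the Sprague Dawley stock without it. FHH.Pkhd1 is a congenic strain in which the segment of PCK chromosome 9 between the markers D9Rat35 and D9Rat70, with Pkhd1, lies on the Fawn Hooded Hypertensive background. FHH is that inbred background strain. Pkhd1 itself was not analysed here, so its level did not serve as a check of the labels. Both kidneys of 6 animals per strain went into 1 RNA pool, which was put on 3 arrays, so the 12 arrays are technical replicates of 4 pools. All standard deviations, standard errors (SE) and p-values below set pools against the spread between arrays, and how much animals of a strain vary was not measured.

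Aldo-keto reductases use NADPH to reduce aldehydes and ketones, among them sugars, steroids, prostaglandins and the reactive aldehydes of lipid peroxidation. The AKR1C enzymes act mainly on steroids and prostaglandins. The AKR1B enzymes include aldose reductase, which makes the osmolyte sorbitol in the renal medulla. Akr1a1 reduces glucuronate and many other aldehydes, and the AKR7 enzymes reduce dicarbonyls such as aflatoxin dialdehyde.

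Signals are log2 values as deposited. Array medians lay between 6.41 and 6.46, arrays of 1 pool correlated with each other at 0.9973 to 0.9985, and arrays of different pools at 0.9862 to 0.9959. The small number of arrays limits the precision. A level of 5.74, the 40th percentile over the probe sets that are not controls, served as the detection level. It is not a measured background, and where a pool lay below it a log2 difference is given with no fold. All 9 genes reached it in at least 1 pool and were tested among 10862 genes. Akr1b7 reached it in FHH.Pkhd1 alone, so this pool put the gene into the test. Calls required both a difference of at least 1.5-fold and an adjusted p below 0.05 by limma. The kidney markers fixed for this comparison were present, with all 10 proximal tubule markers tested in every comparison and 0 of them called. Their summed signal was 15.75 to 15.77 on the PCK arrays, 15.78 to 15.81 on the SD arrays, 15.77 to 15.80 on the FHH.Pkhd1 arrays and 15.77 to 15.79 on the FHH arrays. In whole-kidney RNA fewer cells of a type and less RNA per cell cannot be told apart.

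Of the 9 genes 5, Akr1c1, Akr1c13, AKR1C3l1, Akr1b7 and Akr1b8, spanned more than 2 log2 units between pools, and the other 4 spanned less than 1. Between their highest and lowest pool means lay 4.84 for Akr1c1, 4.80 for Akr1c13, 3.69 for Akr1b7, 3.10 for AKR1C3l1 and 2.47 for Akr1b8. By this span they ranked 6, 7, 18, 24 and 34 among the 10862 genes tested. The spans and ranks of Akr1c1 and Akr1b7 are those of the deposited values, since Akr1c1 was below the detection level in FHH.Pkhd1 (5.22) and Akr1b7 in PCK (3.85), SD (4.08) and FHH (5.73). Akr7a3 spanned 0.80, Akr1b1 0.50, Akr1a1 0.12 and Akr7a2 0.06. The span of Akr7a2 was larger than that of 2.82% of the genes tested.

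**Figure D1:**
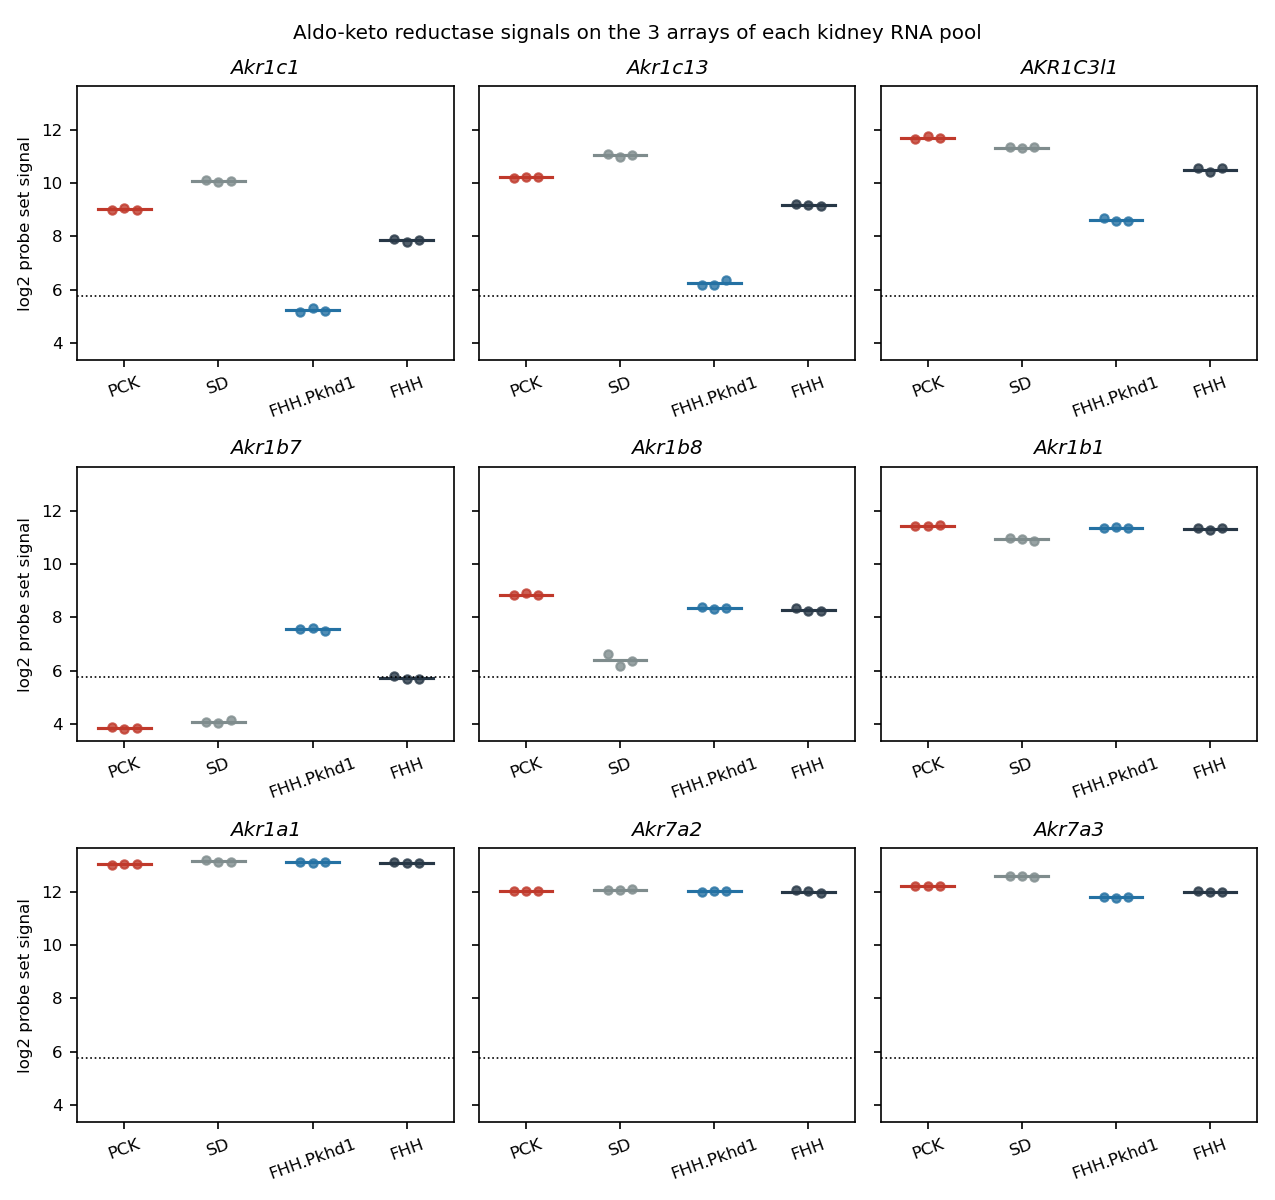
Log2 probe set signal of the 9 aldo-keto reductase genes on the 3 arrays (points) of each kidney RNA pool, with the pool mean as a bar and the detection level of 5.74 as a dotted line. Akr1c1 lies below that level in FHH.Pkhd1 and Akr1b7 lies below it in PCK, SD and FHH, while Akr1a1 and Akr7a2 stay level in the 4 pools.

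Akr1c1, Akr1c13 and AKR1C3l1 belong to a cluster of 11 aldo-keto reductase genes on chromosome 17, where they stand as genes 3, 6 and 4 in order in the GRCr8 assembly. The Akr1b genes lie on chromosome 4 in the order Akr1b1, Akr1b8, Akr1b10 and Akr1b7. Akr1a1, Akr7a2 and Akr7a3 lie on chromosome 5, and none of the 9 lies on chromosome 9, which holds the congenic segment. The RefSeq promoter table (GRCr8) held 7 of the 9 genes, all but Akr1c1 and Akr1b1. The 250 bases before the start are given for a pair of cluster genes that both fell in FHH.Pkhd1 and for a pair of Akr1b genes whose levels did not move together. Capitals mark letters of the motifs searched on both strands, which were the antioxidant response element core TGACNNNGC, the hypertonicity element core TGGAAA, the steroid receptor element core AGAACA, the HNF1 core GTTAAT, the TATA box core TATAAA and the CCAAT box CCAAT.
Akr1c13, chr17:70894386-70894635, plus strand: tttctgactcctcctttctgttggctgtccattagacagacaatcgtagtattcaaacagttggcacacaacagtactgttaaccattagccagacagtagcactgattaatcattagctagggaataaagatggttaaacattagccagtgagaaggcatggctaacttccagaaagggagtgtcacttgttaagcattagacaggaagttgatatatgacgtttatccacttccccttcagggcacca
AKR1C3l1, chr17:70757251-70757500, plus strand: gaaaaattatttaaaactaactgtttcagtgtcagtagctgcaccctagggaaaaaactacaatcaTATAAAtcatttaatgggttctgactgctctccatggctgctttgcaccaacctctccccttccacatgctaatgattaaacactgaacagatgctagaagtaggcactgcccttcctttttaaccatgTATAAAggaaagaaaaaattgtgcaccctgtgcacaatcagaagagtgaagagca
Akr1b7, chr4:64043720-64043969, plus strand: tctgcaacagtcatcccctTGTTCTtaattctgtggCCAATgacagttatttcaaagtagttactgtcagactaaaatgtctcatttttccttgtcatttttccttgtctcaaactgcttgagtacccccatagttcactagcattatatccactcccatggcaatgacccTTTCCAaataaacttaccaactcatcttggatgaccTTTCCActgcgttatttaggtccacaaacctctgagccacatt
Akr1b8, chr4:63964171-63964420, plus strand: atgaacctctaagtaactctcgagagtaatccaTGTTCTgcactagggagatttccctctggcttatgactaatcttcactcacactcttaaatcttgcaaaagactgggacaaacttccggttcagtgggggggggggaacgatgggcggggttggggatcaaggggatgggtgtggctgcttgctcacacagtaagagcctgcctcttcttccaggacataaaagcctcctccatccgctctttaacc
No match to any of the 6 motifs lay in the Akr1c13 window. AKR1C3l1 held the TATA box core at 184 and 55 bases before the start, a motif found in 12.9% of 33469 promoter windows of this length. Akr1b7 held the hypertonicity core at 79 and 43 bases (19.7% of windows), the steroid receptor core at 231 (17.5%) and the CCAAT box at 214 (34%). Akr1b8 held the steroid receptor core at 217 bases. The antioxidant response core, found in 10.1% of windows, was in 0 of the 7 windows of members, and the HNF1 core (6.45%) was in 1, that of Akr7a3. None of the motifs overlapped another in the 4 windows shown. The start that the table uses for Akr1c13 and for AKR1C3l1 lies inside the full span of the gene record, so the windows stand before 1 start of several, and the records of Akr1c1 and AKR1C3l1 overlap.

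Akr1c1, also known as a 17beta-hydroxysteroid dehydrogenase gene under the synonym Hsd17b5, was measured by the probe set 1393902_at. Its signals were 8.99, 9.07 and 8.97 on the PCK arrays and 10.10, 10.03 and 10.06 on the SD arrays. On the FHH.Pkhd1 arrays they were 5.16, 5.30 and 5.20, against 7.91, 7.80 and 7.86 on the FHH arrays. The pools ranked SD, PCK, FHH and FHH.Pkhd1 from high to low, and no pool overlapped its neighbour. Akr1c1 fell by 1.05 ± 0.04 in PCK minus SD (SE, limma adjusted p = 4.28e-09), which is 2.07-fold lower. In FHH.Pkhd1 it fell below the detection level, with a log2 difference from FHH of -2.64 ± 0.04 (adjusted p = 1.37e-12).

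Akr1c13, a hydroxysteroid dehydrogenase relative whose gene record shares the older names Akr1c12 and Akr1c13 with a neighbour, was measured by 1398612_at. It stood at 10.17, 10.21 and 10.22 in PCK and at 11.07, 10.97 and 11.05 in SD. In FHH.Pkhd1 it stood at 6.16, 6.16 and 6.37, against 9.21, 9.17 and 9.12 in FHH. The order of pools was that of Akr1c1, again with no overlap, but here the lowest pool, FHH.Pkhd1, was still detected. Akr1c13 was 7.64-fold lower in FHH.Pkhd1 than in FHH (-2.93 ± 0.06, SE, limma adjusted p = 3.27e-12). In PCK it was 1.77-fold lower than in SD (-0.83 ± 0.06, adjusted p = 2.41e-07).

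AKR1C3l1, measured by 1393221_at, lies between Akr1c1 and Akr1c13 in the cluster and shared their low signal in FHH.Pkhd1 but not their order in PCK and SD. It stood at 11.66, 11.76 and 11.68 in PCK and at 11.34, 11.29 and 11.33 in SD. In FHH.Pkhd1 it stood at 8.69, 8.56 and 8.56, against 10.56, 10.39 and 10.55 in FHH. Here PCK was the highest pool, with no overlap between any neighbours in the order PCK, SD, FHH and FHH.Pkhd1. The difference in PCK minus SD was 0.38 ± 0.05 (SE, limma adjusted p = 0.000123), short of 1.5-fold and not called. It was 3.73-fold lower in FHH.Pkhd1 than in FHH (-1.90 ± 0.05, adjusted p = 1.11e-10).

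Between the backgrounds all 3 cluster genes were higher on the SD side. In PCK minus FHH.Pkhd1, which compares pools with the same Pkhd1 segment, the log2 difference was 3.79 ± 0.04 for Akr1c1 (SE, limma adjusted p = 1.33e-14), with FHH.Pkhd1 below the detection level. Akr1c13 was 15.7-fold higher in PCK (3.97 ± 0.06) and AKR1C3l1 was 8.57-fold higher (3.10 ± 0.05). In SD minus FHH, strains without the mutation, Akr1c1 was 4.61-fold higher in SD (2.21 ± 0.04, adjusted p = 5.81e-12). Akr1c13 was 3.64-fold higher (1.86 ± 0.06) and AKR1C3l1 1.76-fold higher (0.82 ± 0.05). The difference of PCK from SD and that of FHH.Pkhd1 from FHH share no array, and their difference was called for all 3, at 1.58 ± 0.06 for Akr1c1, 2.11 ± 0.08 for Akr1c13 and 2.28 ± 0.07 for AKR1C3l1.

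Akr1b7, an aldose reductase relative known in mouse from the vas deferens and the adrenal cortex, was measured by 1368569_at. It stood at 3.87, 3.82 and 3.86 in PCK and at 4.07, 4.02 and 4.14 in SD. In FHH.Pkhd1 it stood at 7.55, 7.61 and 7.47, against 5.80, 5.70 and 5.69 in FHH. FHH.Pkhd1 was the single pool whose mean reached the detection level, and FHH lay just under it with a mean of 5.73. Akr1b7 rose in FHH.Pkhd1 minus FHH by 1.81 ± 0.05 (SE, limma adjusted p = 6.58e-11). The log2 difference in PCK minus FHH.Pkhd1 was -3.69 ± 0.05 (adjusted p = 1.69e-14), and in SD minus FHH it was -1.65 ± 0.05. In PCK minus SD the value was -0.23 ± 0.05 with both pools below the detection level, and it was not called.

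Several genes of the adrenal cortex, a tissue that lies close to the kidney, differed between the same pools as Akr1b7. Of 10 adrenal cortex markers 8 had a probe set and 6 were tested, of which 3 rose in FHH.Pkhd1 minus FHH and 0 fell, where 0.396% of all genes rose and 0.865% fell. They were Hsd3b1 (1.07 ± 0.07, SE), Cyp11a1 (0.92 ± 0.10) and Star (0.83 ± 0.07), all of steroid synthesis. Between PCK and FHH.Pkhd1 4 of the 6 were lower and 1 was higher, and in SD minus FHH 3 were lower and 1 was higher, where 5.83% and 3.31% of all genes were called. The medians of the 6 were 0.70 in FHH.Pkhd1 minus FHH, -1.41 against FHH.Pkhd1 in PCK and -0.77 against FHH in SD. The marker on the higher side was Mrap, the accessory protein of the corticotropin receptor, which is also active in fat (1.89 against FHH.Pkhd1 in PCK, and 1.80 against FHH in SD). The adrenal cortex list had a summed signal of 10.95 to 11.02 on the PCK arrays and 11.04 to 11.12 on the SD arrays. It was 11.68 to 11.75 on the FHH.Pkhd1 arrays, against 11.32 to 11.36 on the FHH arrays. Fdx1 was the brightest gene of the list in every pool, at 10.62 to 10.99 as pool means. It was not called in any comparison, so the sum rests largely on a gene that changed little. Nr5a1 (4.63 to 4.86) and Cyp11b1 (3.24 to 3.94), the enzyme of glucocorticoid synthesis, were below the detection level in all 4 pools, and Cyp11b2 and Mc2r were not analysed here. The part of adrenal tissue in the Akr1b7 result was not tested.

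Akr1b8, known in mouse as a growth factor induced reductase of lipid aldehydes, was measured by 1370902_at and was low in SD alone. It stood at 8.82, 8.91 and 8.82 in PCK, against 6.62, 6.18 and 6.34 in SD. In FHH.Pkhd1 it stood at 8.39, 8.31 and 8.35, against 8.34, 8.24 and 8.24 in FHH, and these 2 pools overlapped. SD arrays varied most, with a standard deviation of 0.23 (n = 3 arrays of 1 pool), and still lay at least 2.19 below every PCK array. Akr1b8 was 5.54-fold higher in PCK than in SD (2.47 ± 0.09, SE, limma adjusted p = 8.93e-10). It was 3.71-fold lower in SD than in FHH (-1.89 ± 0.09, adjusted p = 7.18e-09). The difference was not called in FHH.Pkhd1 minus FHH (0.08 ± 0.09, 95% confidence interval -0.10 to 0.27) or in PCK minus FHH.Pkhd1 (0.50 ± 0.09).

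Akr1b1, aldose reductase, was measured by 2 probe sets. The brighter, 1367734_at, stood at 11.40 to 11.45 in PCK, against 10.87 to 10.96 in SD, and at 11.34 to 11.36 in FHH.Pkhd1, against 11.28 to 11.33 in FHH. SD was again the lowest pool, as for Akr1b8, at a much smaller distance. The differences of 0.50 ± 0.03 in PCK minus SD (SE, limma adjusted p = 3.34e-07) and -0.39 ± 0.03 in SD minus FHH did not reach 1.5-fold. The other probe set, 1396360_at, was nearer the detection level at 6.10 to 6.49 over all arrays, and it gave 0.02 ± 0.07 in PCK minus SD (adjusted p = 0.866).

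The 3 members on chromosome 5 were bright in all pools. Akr1a1 stood at 12.99 to 13.03 in PCK, 13.12 to 13.17 in SD, 13.09 to 13.10 in FHH.Pkhd1 and 13.06 to 13.10 in FHH. Akr7a2, a succinic semialdehyde reductase, stood at 12.003 to 12.011 in PCK, 12.05 to 12.08 in SD, 11.99 to 12.02 in FHH.Pkhd1 and 11.95 to 12.05 in FHH. For both the means differed by at most 0.12 between any pools, and no comparison was called. The largest 95% confidence interval bound of an Akr7a2 difference was 0.13 on the log2 scale, over the 4 comparisons.

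Akr7a3, the aflatoxin aldehyde reductase of rat liver, stood at 12.19 to 12.22 in PCK, against 12.53 to 12.59 in SD. In FHH.Pkhd1 it stood at 11.75 to 11.80, against 11.98 to 12.01 in FHH. No pool overlapped another, and the order SD, PCK, FHH and FHH.Pkhd1 was that of Akr1c1 and Akr1c13, on a smaller scale. The differences were -0.37 ± 0.03 in PCK minus SD (SE, limma adjusted p = 2.22e-06) and -0.22 ± 0.03 in FHH.Pkhd1 minus FHH (adjusted p = 0.000429), neither of them 1.5-fold. In SD minus FHH the value of 0.58 ± 0.03 lay just under that limit, and it was called without SD replicate 3 (0.60) or FHH replicate 1 (0.59).

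In PCK minus SD 3 of the 9 members were called, 1 higher and 2 lower, where 3.12% of all genes tested were called (1.69% higher and 1.43% lower). In FHH.Pkhd1 minus FHH 4 were called, 1 higher and 3 lower, beside 1.26% of all genes (0.396% and 0.865%). Members called between PCK and FHH.Pkhd1 numbered 4, 3 higher and 1 lower, beside 5.83% (2.93% and 2.9%). SD minus FHH had 5 calls, 3 higher and 2 lower, beside 3.31% (1.56% and 1.75%). The interaction, PCK minus SD less FHH.Pkhd1 minus FHH, was called for 5, 4 of them positive and 1 negative, beside 5.03% (2.9% and 2.13%). Each pool enters more than 1 of these comparisons, so they share arrays. Akr1b7 is among the calls of all of them but PCK minus SD. It entered the test through FHH.Pkhd1 alone, so the filter favoured its calls against that pool. In SD minus FHH both of its pools lay below the detection level. Median absolute log2 differences of the members were 0.38, 0.22, 0.50 and 0.82 in this order of comparisons, beside 0.10, 0.08, 0.14 and 0.10 over all genes. The signed medians of the members were -0.12, 0.00, 0.43 and 0.06, beside 0.00, 0.01, -0.06 and -0.04, since members lay on both sides. The members had been listed with earlier results of these arrays known.

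**Figure D2:**
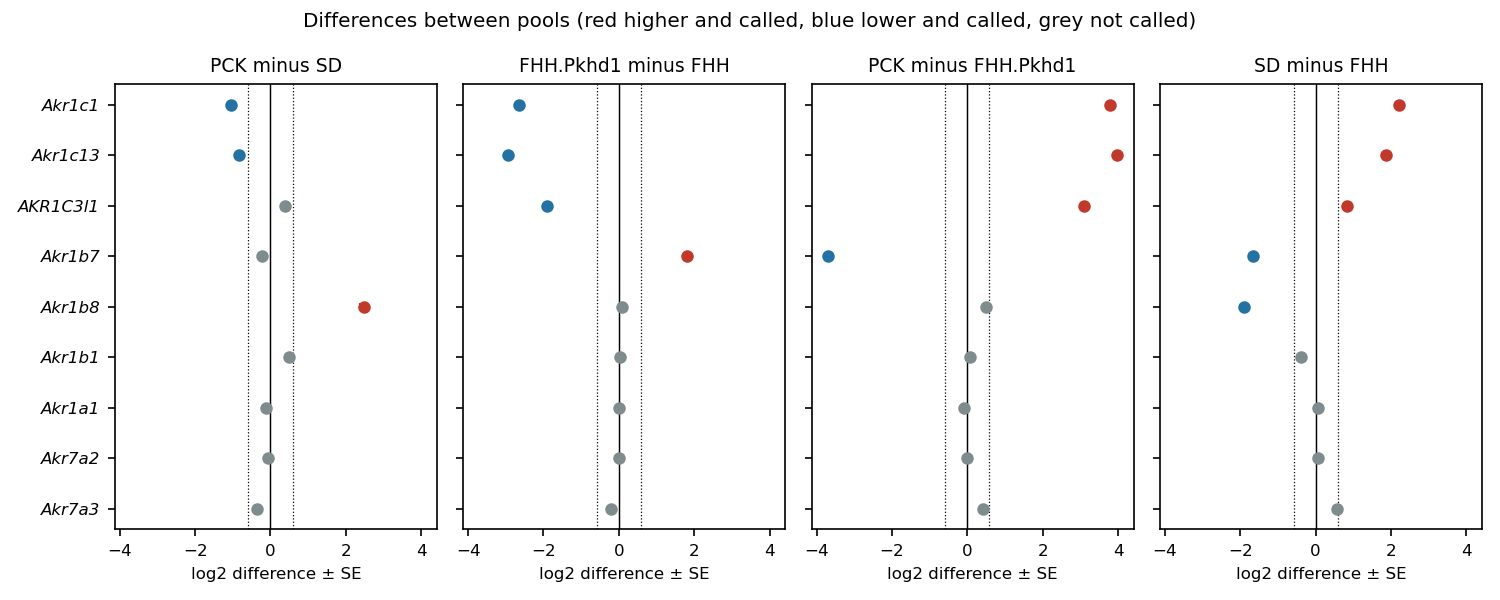
Log2 difference between pools for each gene (points, bars are SE from limma and mostly smaller than the points) in the 4 comparisons, with 1.5-fold marked by dotted lines. Akr1c1 and Akr1c13 are lower and Akr1b8 is higher in PCK minus SD, and the 3 Akr1c genes are lower and Akr1b7 is higher in FHH.Pkhd1 minus FHH.

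**Figure D3:**
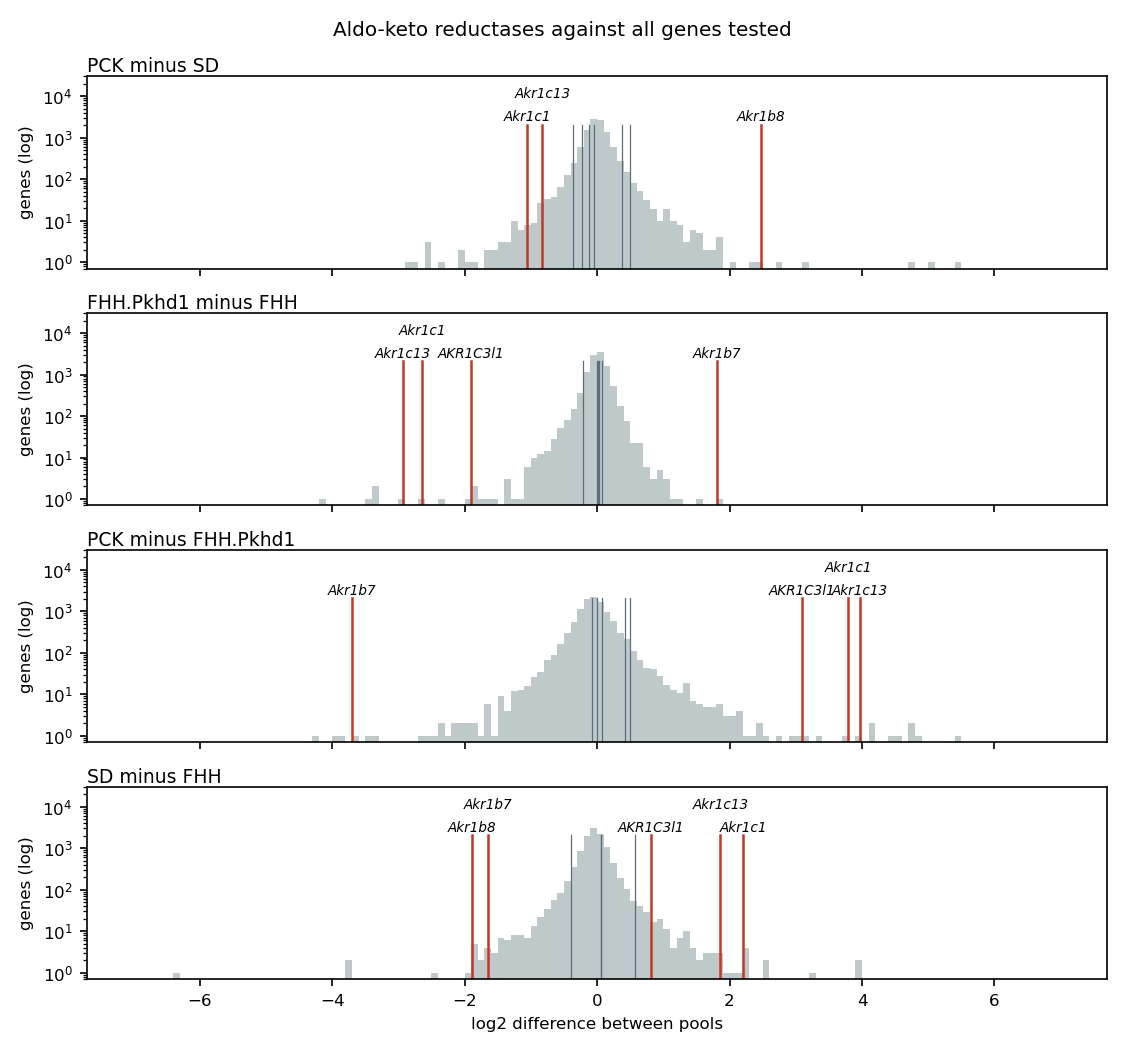
Distribution of log2 differences over the 10862 genes tested (grey, counts on a log axis) with the 9 aldo-keto reductases as lines, red and named where the difference is at least 1.5-fold. In FHH.Pkhd1 minus FHH, Akr1c13 at -2.93 and Akr1c1 at -2.64 lie near the lower end and Akr1b7 at 1.81 at the upper end.

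Paralogs can share array signal where probes match more than 1 transcript, so the probe sets were compared. All 10 member probe sets have a name ending in _at with no further letter, which in the Affymetrix naming marks probe sets designed for 1 transcript, and 0 probe sets that carry several symbols included an aldo-keto reductase. Akr1c1 and Akr1c13 had nearly the same profile. The root mean square distance between their pool means, each centred on its own mean over the pools, was 0.14, and the difference between their log2 signals moved by 0.34 over the 4 pools while each gene spanned over 4 units. PCK and SD did not overlap in that difference, with Akr1c1 minus Akr1c13 at -1.25 to -1.15 in PCK, against -0.99 to -0.94 in SD (two-sided exact permutation p = 0.1, which is as low as 3 against 3 can go). In FHH.Pkhd1 it was -1.17 to -0.87, against -1.37 to -1.25 in FHH (exact permutation p = 0.1), and SD did not overlap FHH either (exact permutation p = 0.1). FHH.Pkhd1 overlapped PCK (exact permutation p = 0.2), and its range held that of SD. AKR1C3l1 was 0.77 from Akr1c1 and 0.74 from Akr1c13. Whether some signal of Akr1c1 and Akr1c13 is shared was not tested, since no probe sequences were used here. Akr1c2, Akr1c12 and Akr1c12l1 of the same cluster had no probe set of their own here. Their part in the signals of the members was not tested either.

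Of the Akr1b members, Akr1b7 did not move with Akr1b8 or Akr1b1. Akr1b8 and the brighter probe set of Akr1b1 shared the order of pool means PCK, FHH.Pkhd1, FHH and SD, over spans of 2.47 and 0.50. Akr1b7 and Akr1b8 were 1.503 apart, Akr1b7 and Akr1b1 1.43, and Akr1b8 and Akr1b1 0.75. In PCK minus SD Akr1b8 was at 2.47 and Akr1b7 at -0.23, and in FHH.Pkhd1 minus FHH Akr1b8 was at 0.08 and Akr1b7 at 1.81. Akr1b10, which lies between both in the cluster, had 2 probe sets that differed in sign in PCK minus SD, at -0.74 ± 0.09 and 0.53 ± 0.06 (SE, limma with every probe set tested, adjusted p = 4.59e-05 and 5.03e-05). Akr7a2 and Akr7a3, both on chromosome 5, also parted, with Akr7a3 spanning 0.80 and Akr7a2 0.06.

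Some genes outside the family had profiles near those of the members. By the distance between centred pool means over the 4 pools, the nearest to Akr1c1 were the dehydrogenase Dhrs7l1 (0.41), the protease inhibitor Pzp (0.45) and the fatty acid hydroxylase Cyp4a8 (0.46), where Akr1c1 itself varied by 1.80 about its mean. The same 3 were nearest to Akr1c13, with Cyp4a8 first (0.33), then Dhrs7l1 (0.38) and Pzp (0.47). AKR1C3l1 was nearest to the muscle calcium store protein Casq1 (0.37), Pzp (0.38) and the trefoil peptide Tff3 (0.40). Nearest to Akr1b7 were the stearoyl-CoA desaturase Scd (0.26) and the adrenal markers Hsd3b1 (0.31) and Cyp11a1 (0.46). Akr1b8 was nearest to the hemidesmosome collagen Col17a1 (0.17), the muscle protein Neb (0.27) and Pamr1 (0.28). These distances rest on 4 pools and describe likeness alone. Several use pool means below the detection level. Among them were Akr1c1 (5.22), Dhrs7l1 (4.67) and Casq1 (4.80) in FHH.Pkhd1, Col17a1 (5.04) and Neb (4.74) in SD, and Akr1b7 in PCK, SD and FHH.

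**Figure D4:**
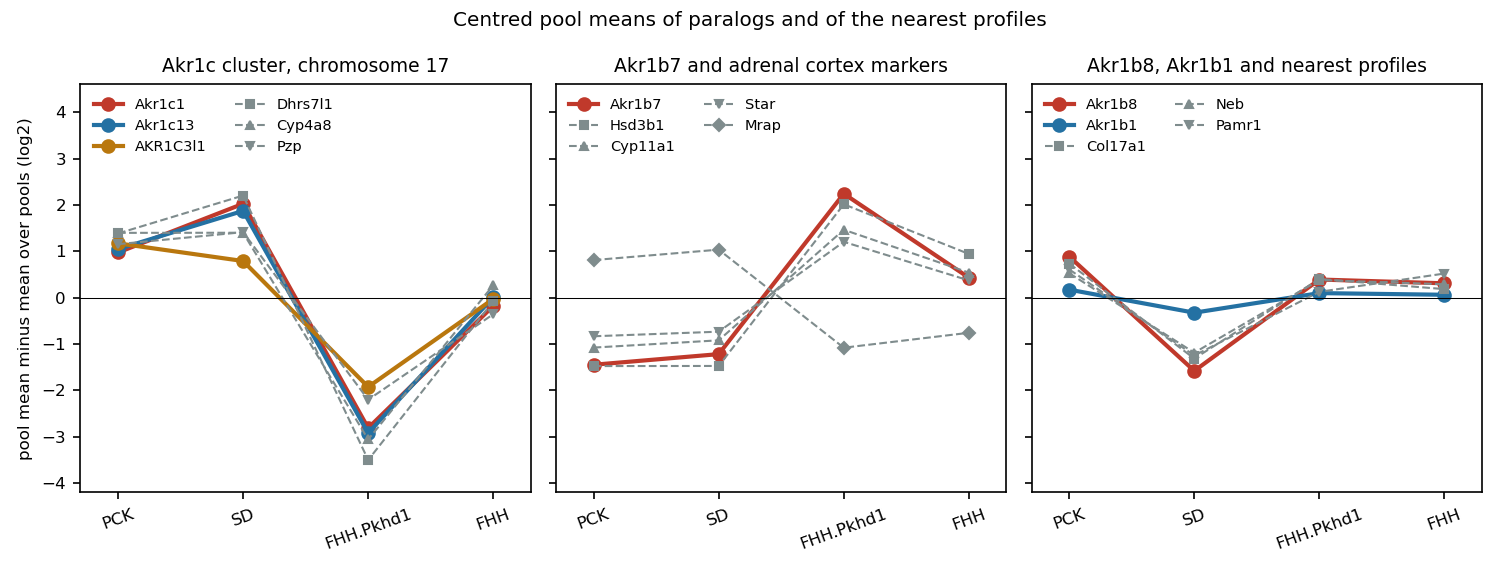
Pool means of each gene minus its own mean over the 4 pools (log2), with members as solid lines and other genes as dashed grey lines that join the pools only to guide the eye. Akr1c1 and Akr1c13 nearly coincide and are lowest in FHH.Pkhd1, Akr1b7 runs with Hsd3b1, Cyp11a1 and Star and against Mrap, and Akr1b8 is lowest in SD.

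Of the rest of the family 7 genes with 11 probe sets were on the array, and 6 of these probe sets reached the detection level. Those of Akr1c14 (3.09 to 4.49 as pool means) and Akr1c3 (3.60 to 3.95), and 1 of 2 of Akr1d1 (2.67 to 2.86), did not. Akr1c19, which follows Akr1c13 in the cluster, was higher in PCK than in FHH.Pkhd1 (0.89 ± 0.06, SE, limma adjusted p = 8.13e-08) and stood at -0.33 ± 0.06 in FHH.Pkhd1 minus FHH, not called. Of the 7 tested genes of the list of other aldo-keto reductases and related potassium channel subunits, 1 was lower in PCK minus SD and 0 were called in FHH.Pkhd1 minus FHH. A single gene was higher in PCK than in FHH.Pkhd1, and 1 was higher in SD than in FHH. Of all genes 3.12%, 1.26%, 5.83% and 3.31% were called in these 4 comparisons, in this order. Akr1b10 gave the call in PCK minus SD and that in SD minus FHH (0.62 ± 0.09), and both were lost when its probe sets were averaged (-0.11 and 0.53). In PCK minus FHH.Pkhd1 its other probe set stood at 1.11 ± 0.06 (SE, limma with every probe set tested, adjusted p = 4.33e-08). The probe set kept for Akr1b10 stood at 0.05 there.

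Enzymes that share substrates with the family were counted against the share of all genes called, which was 3.12% between PCK and SD, 1.26% between FHH.Pkhd1 and FHH, 5.83% between PCK and FHH.Pkhd1 and 3.31% between SD and FHH. Of 19 tested carbonyl reductases and short-chain dehydrogenases, 2 were lower in PCK minus SD, Dhrs7l1 (-0.82 ± 0.07, SE) and the peroxisomal enzyme Hsd17b4 (-0.65 ± 0.03). In FHH.Pkhd1 minus FHH 1 was lower, Dhrs7l1 (-3.43 ± 0.07), which was below the detection level in FHH.Pkhd1. Against FHH.Pkhd1, PCK had 3 higher and 1 lower, with the cortisone reductase Hsd11b1 2.5-fold higher (1.32 ± 0.03), and in SD minus FHH 3 were higher and 1 lower. The medians of these 19 genes were 0.05, 0.04, -0.20 and -0.08 in the 4 comparisons, beside 0.00, 0.01, -0.06 and -0.04 over all genes. Of 15 aldehyde and alcohol dehydrogenases 1 was lower in PCK minus SD, Adh1c (-0.84 ± 0.04), and 0 were called in FHH.Pkhd1 minus FHH, where Aldh1b1 (-0.48) and Aldh1a2 (-0.46) were furthest from 0. Adh1c and Aldh1b1 were higher in PCK than in FHH.Pkhd1 and in SD than in FHH, and the medians were -0.09, 0.02, -0.09 and -0.06.

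The pathways of single members were counted in the same way. Of 6 tested polyol pathway genes, which work beside Akr1b1, 0 were called in the 4 comparisons, with Pfkl at 0.35 ± 0.08 and Hk1 at 0.30 ± 0.06 in PCK minus SD and medians of -0.03 there and -0.14 in FHH.Pkhd1 minus FHH. Of 9 hypertonicity genes, which respond to salt as Akr1b1 does, 1 was higher in PCK minus SD, the urea transporter Slc14a2 (0.62 ± 0.05, or 0.30 and not called when its probe sets were averaged). None of the 9 was called in the other 3 comparisons. Their median was 0.17 in the PCK comparison with SD and 0.17 in that of FHH.Pkhd1 with FHH, beside 0.00 and 0.01 over all genes. Of 10 glucuronate and ascorbate pathway genes, which work beside Akr1a1, 0 were called in PCK minus SD and 1 was lower in FHH.Pkhd1 minus FHH, where 0.865% of all genes were lower, the calcium-binding lactonase Rgn (-1.40 ± 0.04, adjusted p = 1.98e-10). Rgn was also higher in PCK than in FHH.Pkhd1 (1.79 ± 0.04) and in SD than in FHH (0.72 ± 0.04), as the only gene of the 10 called there, where 2.93% and 1.56% of all genes were higher.

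Targets of NRF2, the antioxidant transcription factor that also drives several aldo-keto reductases, were counted because Akr1b8 and Akr7a3 are often listed with them. Of 28 tested, 1 was higher in PCK minus SD, the quinone reductase Nqo1 (0.59 ± 0.06, SE, limma adjusted p = 1.86e-05), and it was not called without PCK replicate 2 (0.55), SD replicate 1 (0.57) or SD replicate 3 (0.58). In FHH.Pkhd1 minus FHH the conjugate exporter Abcc2 fell (-0.80 ± 0.09) and the glutathione transferase Gsta1 rose (0.65 ± 0.03). Between PCK and FHH.Pkhd1 6 were higher and 1 lower, with Abcc2 at 1.199 ± 0.09, Nqo1 at 0.74 ± 0.06 and Gsta3 at -1.16 ± 0.06, where 5.83% of all genes were called. In SD minus FHH 4 were higher and 2 lower, with Gsta1 at 1.65 ± 0.03, where 3.31% of all genes were called. The medians were 0.00, 0.05, 0.12 and 0.18 in the 4 comparisons, beside 0.00, 0.01, -0.06 and -0.04 over all genes.

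Of 18 tested genes of steroid and prostaglandin metabolism 2 were lower in PCK minus SD, the cyclooxygenase Ptgs2 (-0.87 ± 0.05, SE) and the prostaglandin dehydrogenase Hpgd (-0.65 ± 0.04). In FHH.Pkhd1 minus FHH 1 was lower, the prostaglandin D synthase Ptgds (-1.33 ± 0.05, limma adjusted p = 4.07e-09). PCK against FHH.Pkhd1 had 1 higher and 4 lower, and SD minus FHH 1 higher and 2 lower, with Ptgds on the higher side in both (1.82 ± 0.05 and 0.82 ± 0.05), where 5.83% and 3.31% of all genes were called. The medians were 0.08, 0.01, -0.20 and -0.13.

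Markers of other kidney cells, and of hepatocytes as a cell type from outside the kidney, were counted in the Pkhd1 comparisons. In PCK minus SD 1 of 4 thick limb and distal tubule markers was lower (Calb1, -0.68 ± 0.03, SE), 1 of 4 principal cell markers was higher (Aqp3, 0.63 ± 0.04) and 1 of 4 intercalated cell markers was higher (Foxi1, 0.63 ± 0.05). Of all genes 1.69% were higher and 1.43% lower there. Beside Calb1, Umod stood at -0.01, Slc12a1 at 0.02 and Slc12a3 at 0.04. The medians of these lists were 0.01, 0.45 and 0.45, in the same order. None of 3 podocyte markers was called, with Wt1 at 0.37, and 1 of 4 hepatocyte genes was higher (F2, 1.504 ± 0.08). The other hepatocyte genes tested were not called, with Apob at 0.58, Serpinc1 at -0.14 and Ahsg at -0.40. Apoa2 was below the detection level in the 4 pools, so F2 does not stand for the cell type. In FHH.Pkhd1 minus FHH the anion exchanger Slc4a1 of the intercalated cell was higher (0.65 ± 0.04), and no other marker of these lists was called. In that comparison 0.396% of all genes were higher and 0.865% lower. Beside Slc4a1, Foxi1 stood at 0.32 there, Atp6v1g3 at 0.28 and Slc26a4 at 0.21. Slc4a1 itself stood at 0.04 in PCK minus SD, where Foxi1 was called, so it does not stand for the cell type. Eif2s3y, on the Y chromosome, stood at 9.51 to 9.85 and Uty at 8.61 to 8.70 as pool means, with 0 calls in any comparison, and Xist was below the detection level in the 4 pools. Poly-A spike-ins averaged 10.81 in PCK, 10.47 in SD, 10.01 in FHH.Pkhd1 and 11.11 in FHH, and their part in the results was not tested.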

How the data were processed

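Expression was measured in rat kidney RNA, 1 pool per strain on 3 arrays, in the PCK, SD, FHH.Pkhd1 and FHH strains. The authors deposited log2 signals per probe set, which were used as they stand. RMA and Partek 6.2 are named, without roles, per the submitters' processing notes. Joint normalization of the arrays is not stated there. Of 31042 probe sets that are not controls, 20826 carried a single symbol, and 20758 of these matched a gene record of GRCr8, used for names, chromosome and gene order. For each gene the probe set with the highest mean was kept. Differences were fitted with limma 3.58.1 in R 4.3.3 over all 12 arrays with 1 mean per strain (8 residual degrees of freedom, 4.02 prior) and adjusted by Benjamini and Hochberg over the 10862 genes tested. Confidence intervals (95%) come from this fit.

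The 9 members and all gene lists were chosen with earlier results of these data known. The genes named beside the members were, for each member spanning at least 1 log2 unit, the 3 nearest in centred pool means, and per list up to 3 called genes with the largest differences, or the 2 largest values where none was called. Promoter motifs were searched in 250 bases before the start in the RefSeq table, and the TATA and CCAAT motifs were added after the sequences were seen. Tested on simulated data (PCK minus SD, 10862 genes), the fit called 100% of genes changed 2-fold or 4-fold, 96% of those changed 1.7-fold and 0% of those changed 1.25-fold. The simulated noise was the spread between arrays of a pool, with none between animals. With noise that small, the 1.5-fold limit largely sets these shares. Alternatives covered the filter, the probe set kept, the fold limit, limma's trend and robust options, fits of the compared arrays alone, quantile normalization, the replicate block and leaving out each array. Figures were drawn with matplotlib 3.10.9.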

Additional observations from a re-analysis of the deposited data

Results flagged for a closer look

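The difference between PCK and SD and the difference between FHH.Pkhd1 and FHH, which share no array, differed from each other for 5 of the 9 aldo-keto reductases by the limma interaction term at 1.5-fold or more, where 5.03% of all 10862 genes tested passed it. The term was 2.39 ± 0.12 for Akr1b8 (SE, limma adjusted p = 3.96e-08), with 2.47 between PCK and SD and 0.08 between FHH.Pkhd1 and FHH. It was 2.28 ± 0.07 for AKR1C3l1 (adjusted p = 8.53e-10), which stood at 0.38 and -1.90, and 2.11 ± 0.08 for Akr1c13, which was lower in both (-0.83 and -2.93). For Akr1c1 it was 1.58 ± 0.06, with -1.05 and -2.64, the latter with FHH.Pkhd1 below the detection level. For Akr1b7 it was -2.04 ± 0.07 (adjusted p = 8.99e-10), with -0.23 in PCK minus SD, where both pools were below the detection level, and 1.81 in FHH.Pkhd1 minus FHH. Akr1b7 entered the test through FHH.Pkhd1, the single pool where it reached that level.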

How the results depend on the processing

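The counts of called genes turned mainly on the fold limit. With no fold limit 3923 genes passed between PCK and SD, 2417 between FHH.Pkhd1 and FHH, 5854 between PCK and FHH.Pkhd1, 4035 between SD and FHH and 3335 in the interaction, against 339, 137, 633, 359 and 546 at 1.5-fold. At 2-fold they were 111, 31, 201, 114 and 170. With every probe set tested, 261 probe sets passed in FHH.Pkhd1 minus FHH and 880 in the interaction, where more features were tested. Leaving out 1 array gave 338 to 359, 133 to 147, 615 to 648, 353 to 371 and 531 to 566 in the same order of comparisons. With the replicate block the counts were 339, 137, 633, 359 and 546, the same as without it. In this balanced layout the block cannot change a difference, so the equal counts do not bear on pairing. The replicate numbers do not pair the arrays, since 6 of 18 same-numbered pairs deviated together at a correlation above 0.1 (range -0.344 to 0.345). For the members, 963 of the results under an alternative stayed on their side of the threshold, 16 gained a call and 2 lost one. No called result changed direction, and the direction of results that were not called was not compared. Many alternatives, such as the filter or leaving out an array of a pool not compared, cannot change a difference. They can move only its adjusted p, so the count of 963 is not a measure of robustness. Both losses, Akr1c13 in PCK minus SD (-0.83) and AKR1C3l1 in SD minus FHH (0.82), and all gains but those of Akr7a3 without 1 array came from the fold limit. Ranking by correlation over the 12 arrays shared 1 of 3 nearest genes for Akr1c1, Akr1c13 and Akr1b8 and 0 for AKR1C3l1 and Akr1b7. Arrays of 1 pool leave the spread between animals unmeasured.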
